A study of Mus musculus with 7 samples.

Results

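YAP and TAZ are transcriptional co-activators, and the TEAD proteins are the DNA-binding factors through which they act on genes such as Ccn1 and Ccn2. The 10 genes described here are the co-activator genes Yap1 and Wwtr1 (TAZ), the factor genes Tead1, Tead2, Tead3 and Tead4, and the direct targets Ccn1 and Ccn2 (older symbols Cyr61 and Ctgf), Ankrd1 and Amotl2. They were chosen by name as the members of this pathway, and each matched 1 of the 52636 rows of the count table. Of the 10, 9 passed the filter on low counts and were tested among 15512 genes, and Ankrd1 did not pass it.

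In the Hippo pathway the MST and LATS kinases phosphorylate YAP and TAZ and keep them out of the nucleus, while stretch, stiff matrix and loss of cell contact release them. In blood vessels YAP and TAZ are known for roles in sprouting, junction turnover and the response to flow, and their activity is set largely by location and phosphorylation of the proteins. The transcript levels given here do not measure that.

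The data are polyadenylated RNA of endothelial cells sorted from mouse liver, 4 libraries of a knockout (KO) of Maf, which encodes the transcription factor c-Maf, and 3 control libraries. The labels give the genotypes only as c-Maf KO and Control. They state neither age, sex, strain, deleted exons, driver of the deletion nor whether controls carry an allele or agent of their own, and nothing says that libraries came from separate animals. The p-values therefore reflect variation among the libraries at hand, part of which may be technical.

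Total counts lay between 24772716 and 32960007 per library. Values below are CPM, the count of a gene scaled to a common library size, after trimmed-mean (TMM) scaling, and a level per length is CPM divided by kilobases of annotated exon. Maf itself stood at 28.9, 159, 124 and 37.7 CPM in KO libraries 1 to 4, against 1664, 2088 and 2147 CPM in controls 1 to 3. The endothelial markers Pecam1, Cdh5 and Kdr were high in every library, with Pecam1 at 662 to 1168 CPM in KO libraries and 1270 to 1431 CPM in controls. Libraries of the KO group differed from one another: the median of 7 endothelial markers stood at 52.1, 67.7, 85.0 and 56.9% of the average control level in the KO libraries in order, and that of 8 hepatocyte markers at 501, 126, 187 and 250%. Control 3 and KO 3 carry lane number 4 in their labels and the other 5 libraries lane number 5. Across all tested genes 45.2% passed edgeR's quasi-likelihood test at an adjusted p under 0.05, 23.0% higher and 22.2% lower in the KO, and in 50.3% the KO and control ranges were separate (25.6% with the KO on top). A gene is said to have risen or fallen in the KO where it passed this threshold. Of the 7 endothelial markers 4 fell, Pecam1 and Kdr among them, and 0 rose. Of 6 sinusoidal endothelial markers 5 fell and 0 rose, with a median log2 fold change of -1.85. The median of these 6 stood at 20.4, 32.9, 35.5 and 22.5% of the average control level in KO 1 to 4. Among the 9 tested genes of the pathway 3 rose (Tead2, Ccn1 and Ccn2), 2 fell (Yap1 and Tead1) and 4 did not pass, and 5 had separate ranges, Tead2 and Ccn1 with the KO on top. Calls of at least 2-fold were made for Tead2 and Ccn1 among rises, against 10.5% of all genes, and for 0 members among falls, against 5.95%. Their median log2 fold change was 0.17, beside 0.0433 for all genes.

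The TEAD element is read here as the letters GGAATG on either strand. Promoter windows from RefSeq (GRCm38.p6), 250 bases upstream of each annotated start, existed for 7 of the 10 genes: Yap1, Wwtr1, Tead2, Tead3, Ccn1, Ankrd1 and Amotl2. Among these, 6 held the element, all but Tead2. Counted by window, 8 of 10 windows of these genes held it, with overlapping windows for Wwtr1 and Tead3, beside 12.6% of 32817 windows of all genes. Both Wwtr1 windows hold the same site, which is thus counted for each. The genes were chosen as members of this pathway, direct targets among them, so the comparison is no test of enrichment. The core recognition letters of MAF proteins, TGCTGAC, stood in 0 of the 10 windows and in 3.81% of all windows, the AP-1 element TGANTCA in 0 and 6.75%, and the CArG box of serum response factor in 0 and 1.47%, both strands searched each time. These matches are letters in a window and say nothing of binding, and the absence of a match covers this window only.

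Ccn1 and Tead2 are the target and the TEAD gene with the largest rises. Their promoters are shown whole as far as no annotated exon overlaps them. Other sites, except for a further one of Tead3, are shown as 30 bases around the element. The sites of Amotl2 and Ankrd1 and the Tead3 pair lie in annotated exons of the same gene. All are written 5′ to 3′ on the strand of the gene, with GGAATG or its reverse complement CATTCC in capitals. The Ccn1 stretch is chr3:145649986-145650235 on the minus strand, and its element lies at -103 to -98 from the start. The Tead2 stretch is chr7:45215542-45215752 on the plus strand, with no element.
Ccn1 promoter: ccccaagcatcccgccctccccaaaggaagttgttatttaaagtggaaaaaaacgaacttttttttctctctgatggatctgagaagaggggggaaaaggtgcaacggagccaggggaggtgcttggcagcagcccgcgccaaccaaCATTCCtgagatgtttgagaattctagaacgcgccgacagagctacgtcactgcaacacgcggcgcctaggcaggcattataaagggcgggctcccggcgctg
Tead2 promoter: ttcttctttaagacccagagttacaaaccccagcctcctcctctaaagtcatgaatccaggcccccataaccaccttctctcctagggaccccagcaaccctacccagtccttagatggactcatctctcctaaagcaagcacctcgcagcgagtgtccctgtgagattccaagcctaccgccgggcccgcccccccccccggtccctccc
Amotl2, chr9:102717727-102717756, plus strand: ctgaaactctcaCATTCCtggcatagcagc
Ankrd1 distal, chr19:36120037-36120066, minus strand: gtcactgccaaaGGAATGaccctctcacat
Ankrd1 proximal, chr19:36119950-36119979, minus strand: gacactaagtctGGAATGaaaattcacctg
Wwtr1, chr3:57576029-57576058, minus strand: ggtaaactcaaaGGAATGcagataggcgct
Yap1, chr9:8004720-8004749, minus strand: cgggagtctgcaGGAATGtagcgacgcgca
Tead3, chr17:28350697-28350726, minus strand: gctCATTCCgtaCATTCCggccatccccct
Tead3 holds the element more than once, here as a pair 3 bases apart. A further Tead3 site, at -182 to -177 from another annotated start and outside annotated exons, is not shown.

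Both co-activator genes had lower averages in the KO, Yap1 at 111 ± 15.3 CPM in KO libraries and 140 ± 6.64 CPM in controls and Wwtr1 at 199 ± 32.1 and 251 ± 10.4 CPM (SD, n = 4 and 3). Yap1 (GRCm38 chromosome 9, 7931999 to 8004596, minus strand) stood at 97.4, 116, 130 and 99.2 CPM in KO 1 to 4, against 134, 147 and 140 CPM in controls 1 to 3. The groups did not overlap, but KO 3 came within a few CPM of control 1. The log2 fold change was -0.35 (SE 0.113, edgeR adjusted p = 0.0337), so Yap1 fell. Wwtr1 (chromosome 3, 57455649 to 57575910, minus strand) stood at 180, 210, 239 and 167 CPM in KO 1 to 4, against 248, 262 and 242 CPM in controls. Its groups did not overlap either, and its log2 fold change of -0.33 (SE 0.130) did not pass (adjusted p = 0.0632). KO 3 was the highest KO library for both genes and also had the highest median of the endothelial markers among the KO libraries. Their part in the difference was not tested. In bulk RNA, fewer cells of a type and less RNA per cell cannot be told apart.

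The call of Yap1 was lost in 11 of 18 alternatives, among them every omission of a single library other than KO 3 (adjusted p = 0.0537 to 0.119) and library totals in place of TMM, where the log2 fold change was -0.08 (adjusted p = 0.473). Library totals moved the median of all genes to 0.31, and relative to that median Yap1 lay at -0.39 with both scalings. Within lane 5 alone, 3 KO and 2 control libraries, Yap1 was at -0.48 (adjusted p = 0.00812) and Wwtr1 at -0.503 (adjusted p = 0.0106). Wwtr1 also passed with at least 1 CPM in 3 libraries as the filter (0.0417), with DESeq2 (0.0293) and without KO 3 (0.00799). These were the only passes of Wwtr1, 4 of 18 alternatives. Among the others it lay at -0.07 with library totals (adjusted p = 0.598) and -0.27 with the replicate block (0.182). Without KO 1 and KO 4, an alternative added after the data were seen, Wwtr1 was at -0.16 (0.306) and Yap1 at -0.19 (0.179). KO 1 and KO 4 held the least Maf of the KO libraries, 28.9 and 37.7 CPM against 159 and 124 CPM in KO 2 and KO 3. They also had the lowest Yap1, Wwtr1 and endothelial marker medians of the KO group. The part of the Maf level was not tested.

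TAZ transcripts outnumbered YAP transcripts per length in every library. Wwtr1 had 41.7 ± 6.72 CPM per kb in KO libraries and 52.4 ± 2.18 in controls (SD, n = 4 and 3), and Yap1 11.9 ± 1.65 and 15.2 ± 0.717. The ratio of Wwtr1 to Yap1 was 3.57, 3.52, 3.56 and 3.27 in KO 1 to 4, against 3.58, 3.44 and 3.35 in controls. This ratio does not depend on library scaling, and its groups overlapped. On the log2 scale the groups differed by 0.0100 (exact permutation test over libraries, two-sided p = 0.83, where 35 arrangements allow 0.0286 at the least).

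**Figure D1:**
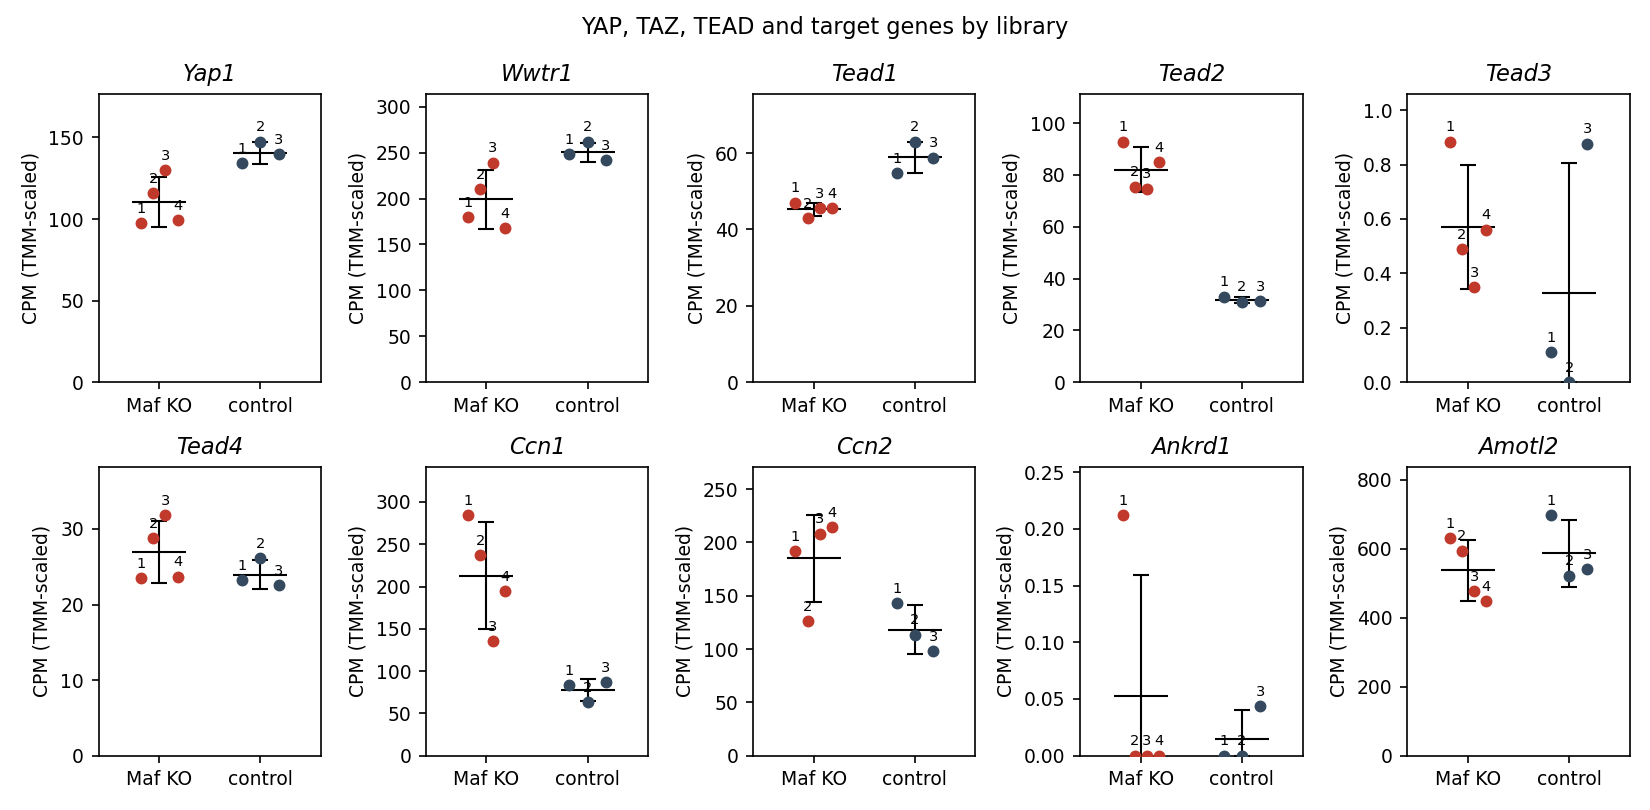
TMM-scaled CPM of the 10 genes in each library, Maf KO left and control right, with library numbers beside the points, bars for the mean and whiskers for the SD (cut at 0). All 4 KO libraries lie above all 3 controls in Tead2 and Ccn1 and below them in Yap1, Wwtr1 and Tead1, and Ankrd1 is at 0 in 5 of 7 libraries.

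The TEAD genes went in different directions, and Tead2 alone among them rose. Tead2 (chromosome 7, 45215753 to 45233644, plus strand) encodes a TEAD factor best known from the early mouse embryo. It stood at 92.8, 75.4, 74.6 and 84.9 CPM in KO 1 to 4, against 32.99, 31.0 and 31.3 CPM in controls 1 to 3. Every KO library was more than 2-fold above every control, since the lowest KO value was 2.26 times the highest control value. The log2 fold change was 1.37 (SE 0.0981, edgeR adjusted p = 2.07e-05), 2.58-fold. That is higher than 92.2% of all tested genes, of which 10.5% rose at least 2-fold. In lane 5 alone it was 1.35 (adjusted p = 0.000223). The leukocyte gene Cd37 overlaps Tead2 on the opposite strand by 13 exon bases, with 1295, 1288, 1414 and 1764 counts in KO 1 to 4, against 1320, 1017 and 936 in controls.

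Tead1, the TEAD gene known for its role in heart and muscle, fell. Its position is chromosome 7, 112679318 to 112906807, plus strand. KO libraries 1 to 4 held 47.0, 42.9, 45.6 and 45.6 CPM, against 54.8, 63.0 and 58.8 CPM in controls. The KO libraries lay within 5 CPM of each other and below all controls. Its log2 fold change came to -0.38 (SE 0.0779, edgeR adjusted p = 0.00419). With library totals it was -0.11 and did not pass (adjusted p = 0.274), and relative to the median of all genes it was -0.42 with both scalings. Lane 5 alone gave -0.43 (adjusted p = 0.0116).

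Tead4, known from the trophectoderm, and Tead3, known from placenta, did not pass. Tead4 (chromosome 6, 128224288 to 128300823, minus strand) stood at 23.5, 28.8, 31.8 and 23.7 CPM in KO 1 to 4, against 23.2, 26.1 and 22.6 CPM in controls, with overlapping groups (log2 fold change 0.17, SE 0.128, adjusted p = 0.304). It passed with library totals (0.43, adjusted p = 0.00975) and without KO 1 and KO 4 (0.34, adjusted p = 0.0494), and was -0.00849 in lane 5 alone. Tead3 (chromosome 17, 28331671 to 28350817, minus strand) was near the limit of detection with 25, 15, 12 and 19 counts in KO 1 to 4, against 3, 0 and 20 in controls. Control 3 reached 0.877 CPM, as high as KO 1 at 0.884 CPM. Control 3 also held the most mesothelial and fibroblast transcripts, with 16.9 CPM of Msln against 0.218 and 0.416 CPM in controls 1 and 2, and their part in Tead3 was not tested. The log2 fold change of Tead3 was 0.82 (SE 0.848, adjusted p = 0.451) with all libraries and 3.20 without control 3 (adjusted p = 0.0174). In lane 5 alone, which also leaves out control 3, it was 3.34 (adjusted p = 0.0147).

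Per length, Tead2 made up most TEAD transcript in the KO and shared the lead with Tead4 in controls. Its share of the summed TEAD level was 65.7, 58.4, 55.98 and 63.9% in KO 1 to 4, against 39.6, 35.2 and 37.8% in controls. Tead1 held 11.9 ± 0.207% in KO libraries and 24.5 ± 1.12% in controls (SD, n = 4 and 3), and Tead4 26.8 ± 4.64% and 37.6 ± 1.67%. Tead3 was under 1% in every library. The sum of the 4 genes was 28.0 ± 1.06 CPM per kb in KO libraries and 17.7 ± 0.609 in controls, with no overlap. The sum of Yap1 and Wwtr1 was 53.6 ± 8.34 and 67.6 ± 2.75 CPM per kb, so the co-activator transcripts exceeded those of their DNA-binding partners in both groups and by less in the KO. These shares rest on the union of annotated exons as length and move with the isoforms used.

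**Figure D2:**
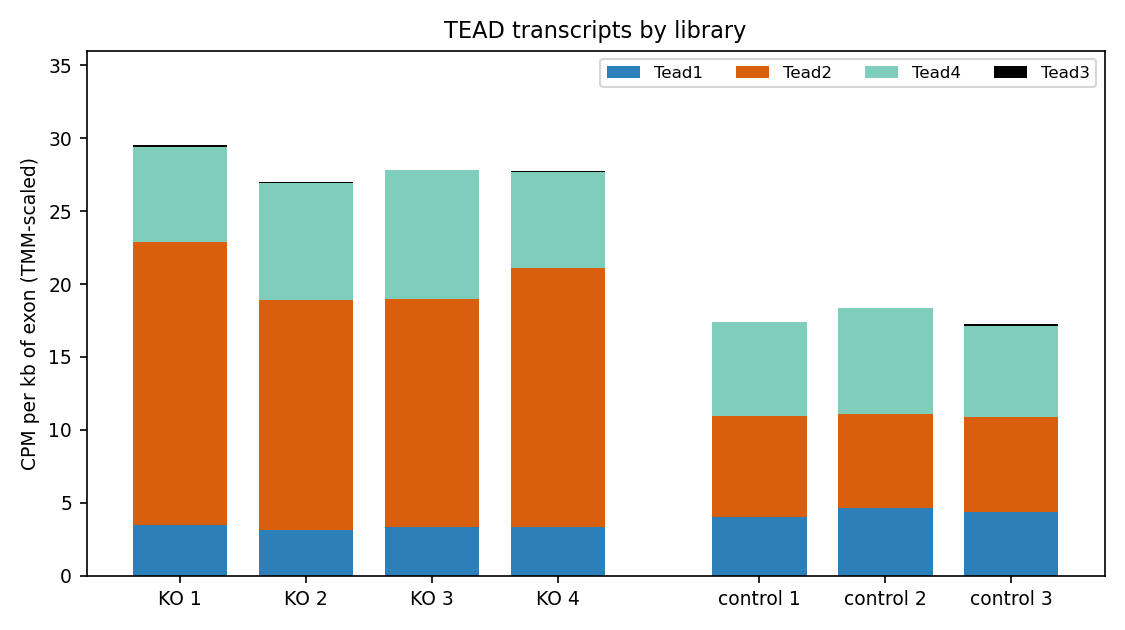
TMM-scaled CPM per kb of exon of the 4 TEAD genes, stacked, in KO libraries 1 to 4 on the left and controls 1 to 3 on the right. The Tead2 part is larger in each KO library, and the summed height runs from 27.0 to 29.5 in KO libraries and from 17.3 to 18.4 in controls.

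The target genes did not move together: Ccn1 and Ccn2 rose, Amotl2 did not pass and Ankrd1 was hardly detected. Ccn1 and Ccn2 encode secreted matricellular proteins that bind integrins and matrix. Ccn1 (chromosome 3, 145646976 to 145649981, minus strand) stood at 284, 237, 135 and 195 CPM in KO 1 to 4, against 83.3, 63.2 and 86.9 CPM in controls 1 to 3. All KO libraries lay above all controls, and they spread more than 2-fold among themselves. The log2 fold change was 1.45 (SE 0.238, edgeR adjusted p = 0.00127), and in lane 5 alone 1.66 (adjusted p = 0.000656).

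Ccn2 (chromosome 10, 24595442 to 24598683, plus strand) stood at 192, 126, 208 and 214 CPM in KO 1 to 4, against 143, 113 and 97.8 CPM in controls. KO 2 lay between controls 1 and 2, so the groups overlapped. Its log2 fold change came to 0.65 (SE 0.197, edgeR adjusted p = 0.0249). In lane 5 alone it was 0.43 (adjusted p = 0.177), and omitting control 2, control 3, KO 3 or KO 4 also ended the call (adjusted p = 0.0523 to 0.0926). The antisense transcript Gm15270 shares 665 exon bases with Ccn2, and without a stated strand setting their reads cannot be told apart. It held 52, 64, 74 and 92 counts in KO 1 to 4, against 34, 28 and 30 in controls, beside 5416, 3866, 7155 and 7268 counts of Ccn2 in KO 1 to 4 and 3925, 2721 and 2229 in controls. Stellate cells and fibroblasts are another known source of Ccn2. Their 9 marker genes, collagen genes among them, summed to 27.3, 22.2, 47.5 and 7.61 CPM in KO 1 to 4, against 15.1, 38.3 and 164 CPM in controls. Of these markers 4 fell, 0 rose and 5 did not pass, where 22.2% of all tested genes fell. The median log2 fold change of the 9 was -1.54. The part of these cells in the Ccn2 values was not tested.

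The KO libraries ranked differently in the CCN genes. Ccn1 was highest in KO 1 and lowest in KO 3, whereas Ccn2 was highest in KO 4 and lowest in KO 2. Per length, the ratio of Ccn1 to Ccn2 was 2.10, 2.67, 0.921 and 1.29 in KO 1 to 4, against 0.826, 0.791 and 1.26 in controls. The difference in the mean log2 ratio was 0.78, with overlapping groups (exact permutation test, two-sided p = 0.114, and 0.228 adjusted over both ratios).

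Amotl2, an angiomotin-like scaffold of endothelial junctions that binds YAP, was the most abundant of the 10 in controls per length. Its position is chromosome 9, 102716672 to 102733418, plus strand. It stood at 630, 594, 476 and 448 CPM in KO 1 to 4, against 698, 522 and 540 CPM in controls. The groups overlapped widely (log2 fold change -0.13, SE 0.162, adjusted p = 0.546, and 0.14 with library totals, adjusted p = 0.488). Ankrd1 (chromosome 19, 36111961 to 36120099, minus strand) encodes a nuclear ankyrin repeat protein best known from heart muscle. It had 6 counts in KO 1 and 0 in KO 2, KO 3 and KO 4, against 0, 0 and 1 count in controls, where 3 counts correspond to 0.0873 to 0.132 CPM.

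**Figure D3:**
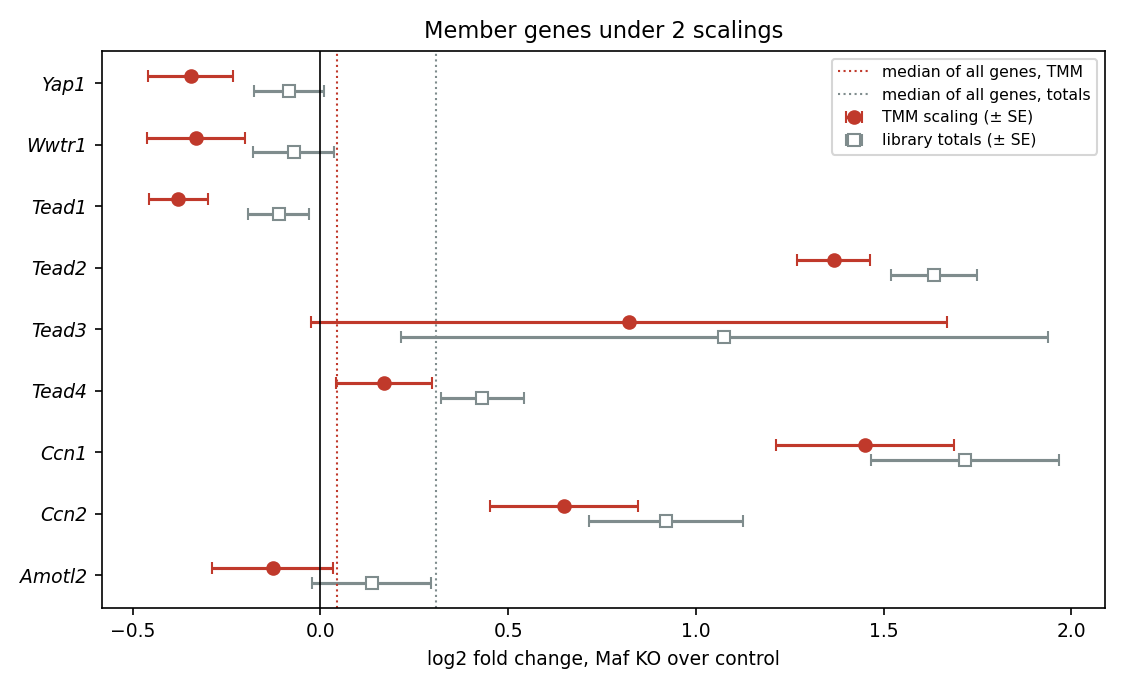
Log2 fold change of Maf KO over control with its SE for the 9 tested genes, under TMM scaling (filled circles) and library totals (open squares), with dotted lines at the median of all genes. Tead2, Ccn1 and Ccn2 lie right of both medians under either scaling, as does Tead3 with a wide SE. Yap1, Wwtr1 and Tead1 lie left of 0, close to it with library totals.

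Ranked by level per length, Amotl2 led the controls at 93.3 ± 15.3 CPM per kb, followed by Wwtr1 at 52.4, Ccn2 at 41.2 ± 8.02, Ccn1 at 38.5 ± 6.33 and Yap1 at 15.2 (SD, n = 3). Ccn2 and Ccn1 did not differ beyond their spread there, and neither did Tead4 at 6.66 ± 0.529 and Tead2 at 6.64 ± 0.221. In KO libraries Ccn1 led at 105 ± 31.4 CPM per kb, ahead of Amotl2 at 85.4 ± 14.1, Ccn2 at 64.7 ± 14.2, Wwtr1 at 41.7, Tead2 at 17.1 ± 1.80 and Yap1 at 11.9 (SD, n = 4). The spreads of Ccn1 and Amotl2 overlapped there. Tead2 exceeded Yap1 in the KO and lay below it in controls.

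Of 21 genes of the Hippo kinase cascade and its scaffolds, all tested, 11 fell, 1 rose and 9 did not pass, where 22.2% of all tested genes fell and 23.0% rose, with a median log2 fold change of -0.31. Lowest was Amotl1, an angiomotin relative that tethers YAP, at 341 ± 54.96 CPM in KO libraries and 641 ± 46.3 CPM in controls (log2 fold change -0.91, SE 0.137, edgeR adjusted p = 0.000837). The scaffold gene Wwc2, the LATS-binding LIM protein gene Limd1 and the MST adaptor gene Sav1 fell by 0.76, 0.57 and 0.44 on the log2 scale. Further genes of the cascade were named for their role after their values were seen: the MST genes Stk3 and Stk4 lay at -0.29 and -0.32, Lats2 at -0.24 (each past the threshold) and Lats1 at -0.04 (adjusted p = 0.655). Nf2, the upstream scaffold merlin, was at -0.61 and the LATS cofactor Mob1a at -0.702, both past the threshold. Ptpn14, a phosphatase that holds YAP in the cytoplasm, rose 1.22-fold, at 84.5 ± 5.78 CPM in KO libraries and 69.4 ± 1.54 CPM in controls.

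As a share of control levels, the median of that list came to 75.3, 82.6, 87.9 and 73.2% across KO 1 to 4. KO 3 was the highest KO library in 9 of the 11 genes that fell. Among markers that fell, it was highest in 4 of 4 endothelial and 4 of 5 sinusoidal endothelial ones. For stellate and fibroblast markers that fell this held in 1 of 4. The share over all genes that fell was not counted, and the part of cell makeup was not tested. With library totals 5 fell and 3 rose, where 1976 of all 15512 tested genes fell and 6373 rose. Lane 5 alone gave 13 falls and 0 rises, where 3830 of 15826 tested genes fell and 3069 rose.

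**Figure D4:**
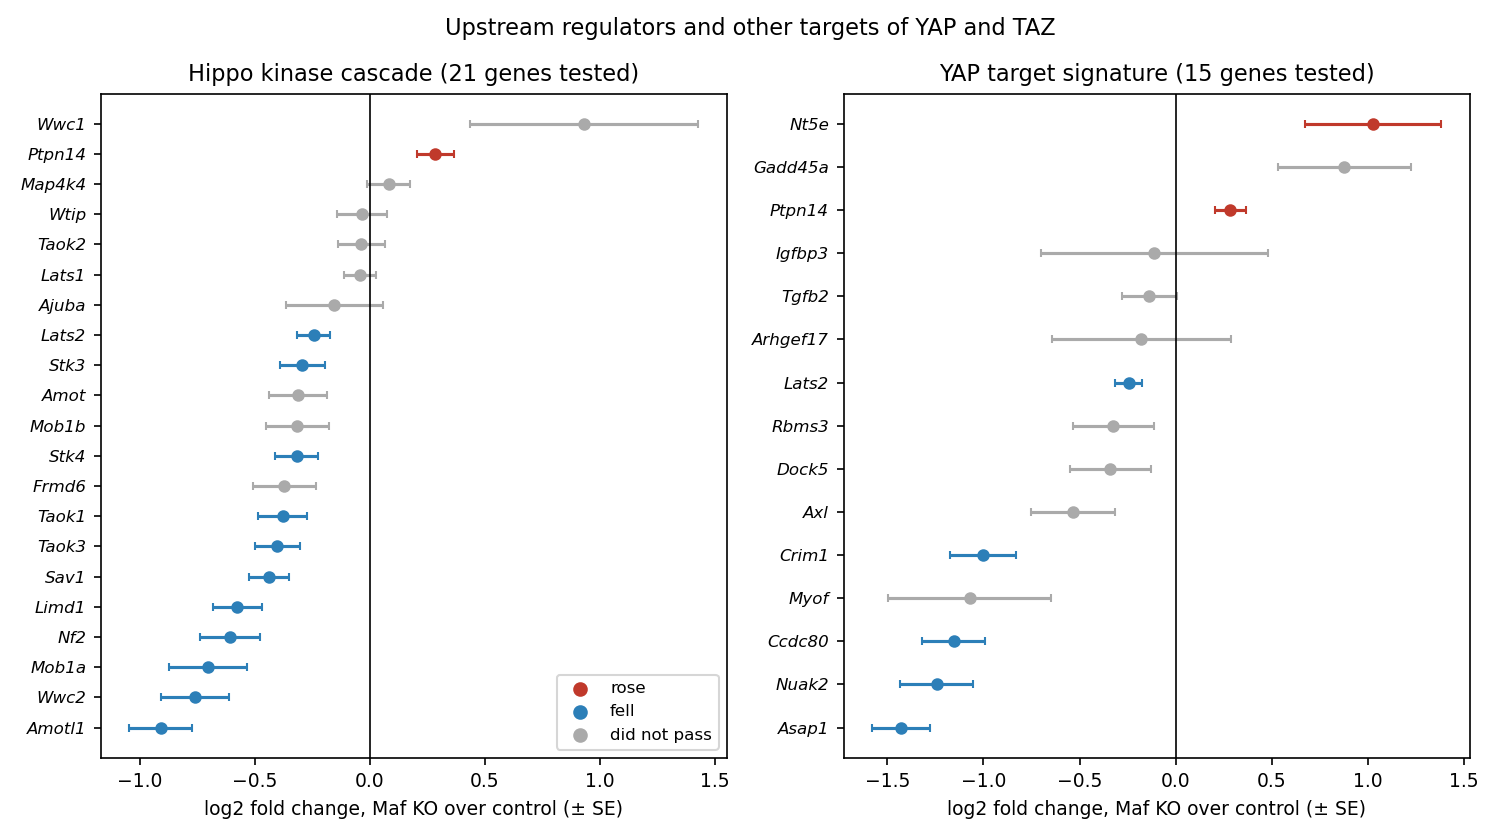
Log2 fold change of Maf KO over control with its SE for 21 tested genes of the Hippo kinase cascade (left) and 15 tested genes of a YAP target signature (right), with rises in red, falls in blue and genes that did not pass in grey. Most points of both lists lie left of 0, from Amotl1 at -0.91 on the left and Asap1 at -1.43 on the right.

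Other targets of YAP and TAZ were taken from a list of 18 genes of a target signature compiled from human tumours, the pathway members described above left out, and 15 of them were tested. Of these, 5 fell, 2 rose and 8 did not pass, against 22.2% falls and 23.0% rises over all tested genes, with a median log2 fold change of -0.32. Asap1, an ARF GTPase-activating protein gene, was at 102 ± 20.7 CPM in KO libraries and 274 ± 16.5 CPM in controls (log2 fold change -1.43, SE 0.151, adjusted p = 0.000122). Nuak2, an AMPK-related kinase gene, Ccdc80, of a secreted matrix protein, and Crim1, of a BMP-binding membrane protein, fell by 1.24, 1.16 and 1.00 on the log2 scale, and Lats2 was the fifth. The ectonucleotidase gene Nt5e (CD73) rose 2.04-fold to 5.57 ± 1.92 CPM in KO libraries, against 2.74 ± 1.28 CPM in controls, and Ptpn14, which is also in the kinase list, was the other rise. Axl was at 14.9 ± 4.45 and 21.6 ± 2.53 CPM (adjusted p = 0.0718) and Gadd45a at 15.8 ± 5.72 and 8.58 ± 3.91 CPM in KO and control libraries (adjusted p = 0.0650). F3, Fjx1 and Foxf2 were under the filter. The number of rises is small: omitting control 2 left 0. Omitting any one of control 1, control 3, KO 1 and KO 4 left 1, as did lane 5 alone, where 6 fell. Over all genes 2379 of 15994 rose without control 2. In lane 5 alone 3069 of 15826 rose and 3830 fell.

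Among partners and relatives, the TEAD cofactor gene Vgll4, whose product competes with YAP for TEAD, fell. It stood at 80.0 ± 11.7 CPM in KO libraries and 114 ± 10.6 CPM in controls (log2 fold change -0.51, SE 0.123, adjusted p = 0.00889), while Vgll1 and Vgll2 had 0 counts in all libraries and Vgll3 up to 0.132 CPM. Of the other CCN genes Ccn4 (Wisp1) fell, at 37.9 ± 5.50 CPM in KO libraries and 68.7 ± 12.9 CPM in controls (log2 fold change -0.86, adjusted p = 0.00190), opposite to Ccn1 and Ccn2, and Ccn3, Ccn5 and Ccn6 were under the filter. Of 8 tested genes of serum response factor and its MRTF cofactors, which share targets with YAP, 1 rose and 1 fell. Over all tested genes 23.0% rose and 22.2% fell, so these calls do not set the list apart. Flna, filamin A, rose 2.37-fold and Vcl, vinculin, fell 1.89-fold, while Srf was at 65.5 ± 5.70 and 70.7 ± 2.19 CPM in KO and control libraries (adjusted p = 0.318). The median of these 8 log2 fold changes was -0.05.

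AP-1 subunits sit beside TEAD at many enhancers and are also induced by tissue dissociation. Of 7 tested 3 rose, 0 fell and 4 did not pass, where 23.0% of all tested genes rose, Fosl2 by 1.38 on the log2 scale, Jun by 0.99 and Jund by 0.71 (adjusted p = 0.00561, 0.00660 and 0.0345). As a share of control levels, the median of the 7 came to 217, 180, 112 and 142% across KO 1 to 4. Ccn1 was at 366, 304, 174 and 250% in the same libraries, in the same order. Ccn2, at 162, 107, 176 and 182%, was not in that order. Of 14 genes that mark dissociation stress 6 rose, 0 fell and 8 did not pass, beside the same 23.0%, their median log2 fold change being 1.04, and Atf3 and Nr4a1 were 6.62- and 5.87-fold higher. Their medians came to 250, 248, 140 and 166% of control levels across KO 1 to 4. Jun, Junb, Fos and Fosb are in both lists, and the part of dissociation in the rise of Ccn1 was not tested. Without KO 1 and KO 4, an alternative added after the data were seen, the log2 fold change of Ccn1 was 1.25 (adjusted p = 0.00708). That alternative kept KO 2, at 248% for the dissociation median, and so does not test the part of dissociation.

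**Figure D5:**
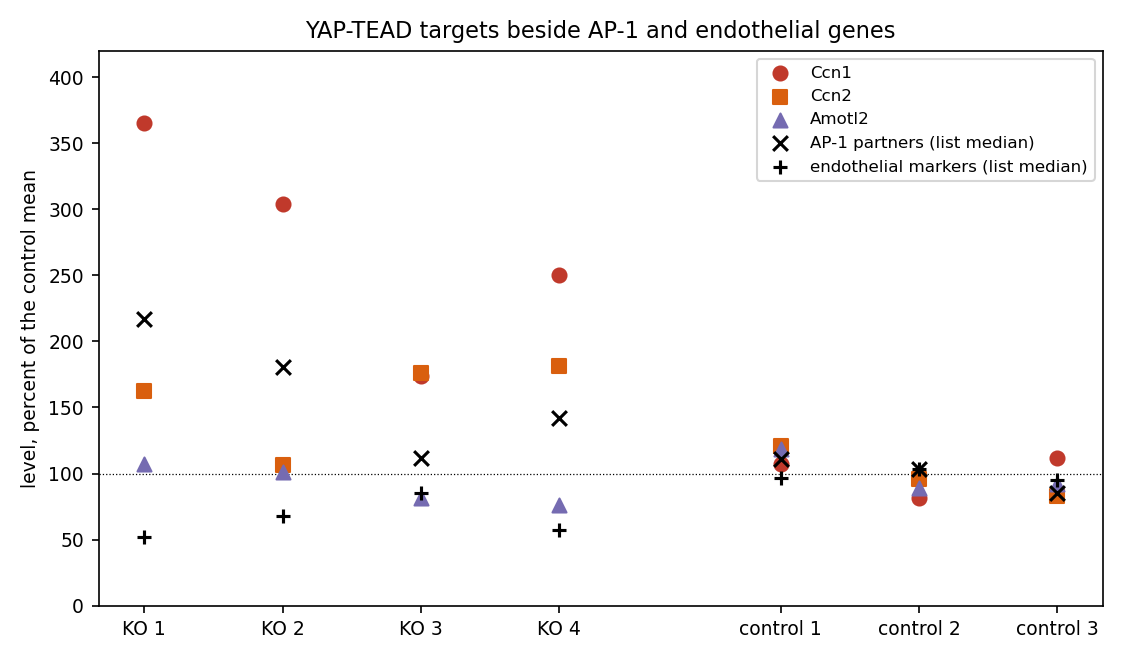
Level of Ccn1, Ccn2 and Amotl2 and list medians of 7 AP-1 genes and 7 endothelial markers, each as percent of the control mean, in KO libraries 1 to 4 on the left and controls 1 to 3 on the right. Ccn1 follows the order of the AP-1 median over the KO libraries, from 366% in KO 1 to 174% in KO 3, whereas Ccn2 and Amotl2 do not.

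The genes whose pattern over the 7 libraries was most like a given one were sought among 9287 others whose mean log2 CPM was 3 or more, by the root mean square difference of centred log2 CPM. For Yap1 these were Aph1a, a gamma-secretase subunit gene, Scamp2 and the coatomer gene Copb1, at 0.0165, 0.0171 and 0.0285. The closest to Ccn1 were Slc22a17, Plppr3 and the endoplasmic reticulum chaperone gene Hspa5, at 0.112, 0.133 and 0.155. Ly6e, Cep57l1 and the exonuclease gene Isg20 were closest to Ccn2, at 0.139, 0.166 and 0.169. None of the 9 is a member of the pathway lists used here.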

How the data were processed

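The authors deposited raw read counts per Ensembl gene, 1 column per library, with no normalization. The tools listed per the submitters' processing notes are STAR 2.7.6a and FastQC 0.11.5, on build GRCm38. Which program counted reads, on which annotation and strand, is not given in the sources used here. Per the labels' protocols an unstranded or a stranded TruSeq kit was used. Symbols, positions and exon lengths came from GENCODE mouse release 21, and 52403 of 52636 IDs matched.

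Counts were filtered with filterByExpr (minimum 10, total 15), scaled by TMM (factors 1.043 to 1.135 in KO libraries, 0.8767 to 0.9211 in controls) and tested on these counts with edgeR 4.0.16 in R 4.3.3, Benjamini-Hochberg over 15512 genes, threshold 0.05, no covariate. SE is the absolute log2 fold change over the square root of F. Alternatives were other scalings and filters, DESeq2 1.42.0, limma-voom (limma 3.58.1), lane, a replicate block and omitted libraries. The fits were tested on simulated data. Libraries of the same group all differed by more than counting error (chi-square over its degrees of freedom, 14.43 to 108.3). Intervals of counting error were not needed, and limits from 3 counts cover counting error only.

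Members and lists were chosen with earlier results of these data known. Named genes were all members, up to 4 list genes per direction with the smallest p, and the 3 most similar to Yap1, Ccn1 and Ccn2. Stretches of 50 bases shared with other genes made up 17.2% of Ccn2 transcript (all Gm15270) and at most 1.35% of the other members.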

Additional observations from a re-analysis of the deposited data

Results flagged for a closer look

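Ankrd1 was singled out because 1 KO library stood far from the rest: the gap of KO 1 to its nearest neighbour was 1 of the whole range, since KO 1 had 6 counts (0.212 CPM) and the other KO libraries 0, against 0, 0 and 1 count in controls. KO 1 also held the most hepatocyte and erythroid transcripts, with marker sums of 1211 and 39.9 CPM, and their part was not tested. The same check was made on 42 values in the KO group and marked 1, where chance marks about 1 in 20. That rate does not apply to Ankrd1. With 0 counts in the other KO libraries, any count in KO 1 makes the gap 1 of the range.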

How the results depend on the processing

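Tead2 and Ccn1 rose under all 18 alternatives, at log2 fold changes of 1.24 to 1.64 and 1.25 to 1.72, and Ccn2 in 11 of 18 (0.43 to 0.92). Tead1 fell in 17 of 18 and Yap1 in 7 of 18. Genes that rose numbered 6373 and genes that fell 1976 with library totals (3561 and 3448 with TMM), and 2234 rose without KO 1 and KO 4, added after the data were seen. Of the pathway's genes 1 fell with upper-quartile factors, no filter, the replicate block or without KO 1 and KO 4, and 0 with library totals. In the kinase list 3 rose and 5 fell with library totals, 0 and 7 with the replicate block, 0 and 6 without KO 1 and KO 4, and 0 rose in lane 5 alone. In the target signature 1 rose in lane 5 alone and 0 without KO 1 and KO 4. Calls over all genes also changed with the setting. Rises and falls were 2448 and 2607 of 15109 with the replicate block, and 2234 and 2420 of 15419 without KO 1 and KO 4. In lane 5 alone they were 3069 and 3830 of 15826. With upper-quartile factors they were 4749 and 2738 of 15512, and with no filter 3620 and 3150 of 28753. Leaving out single libraries gave 2379 to 3769 rises and 2584 to 3930 falls over all genes, 2 to 3 and 1 to 3 in the pathway, 0 to 1 and 7 to 12 in the kinase list, and 0 to 2 and 4 to 6 in the signature. The ratio of Wwtr1 to Yap1 changed sign around 0, at -0.0246 in lane 5 alone, -0.0131 without control 3, -0.00259 without KO 1 and -0.00151 without KO 3 (leave-one-out range -0.0131 to 0.0398), and the log2 difference in that of Ccn1 to Ccn2 was 1.26 in lane 5 alone and ran from 0.53 to 1.04 when single libraries were left out. The cause of these shifts was not tested. Whether same-numbered libraries were paired is not stated, and they carried the same lane number, so the replicate block takes in lane. Their deviations from the group means correlated at -0.0133, 0.162 and 0.0674. KO 2 and KO 3 correlated best with the control of their number, and KO 1 with control 3 (0.0781). With the replicate block, on 3 pairs, the calls of Yap1 (adjusted p = 0.0867) and Ccn2 (0.0596) were lost. Depth limits Tead3 and Ankrd1.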
